A study of Mus musculus with 6 samples.

Results

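Adhesion G protein-coupled receptors were examined in the inner enamel epithelium (IEE) of the mandibular first molar at E18.5. The members were all genes whose symbol begins with *Adgr*, which gave 26 of the 18152 genes in the deposited table. Of these, 17 reached 1 TPM (a transcript level scaled by length to the same total in every library) in at least 1 library, and 14 of them did so in every library. These counts are 65.4% and 53.8% of the members, beside 78.7% and 67.7% of all genes. The comparison asks how loss of *Kdf1* from the epithelium alters transcript levels, with 3 libraries per genotype. The control mice were *Kdf1* fl/fl, with both *Kdf1* alleles flanked by loxP sites and no Cre, although their labels read WT. The cKO mice were *K14-Cre;Kdf1* fl/fl, in which the keratin 14 promoter drives Cre, which directs the deletion to epithelial cells. Both lines were on a C57BL/6J background, and the IEE was cut from frozen head sections by laser capture microdissection, which can include neighbouring cells. Libraries are named here by genotype and biological replicate number, and values of replicates 1, 2 and 3 are given in that order.

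Adhesion receptors carry a long extracellular part, a GAIN domain in which many of them cut themselves, and a membrane part with the helices of a G protein-coupled receptor. Binding of a ligand on a neighbouring cell or in the matrix can expose a short tethered peptide that activates the receptor and, through it, heterotrimeric G proteins. The subfamilies differ in their ligands. Latrophilins (*Adgrl*) bind teneurins and FLRT proteins, *Adgrg1* binds type III collagen, *Adgre5* binds CD55, and *Adgra2* works with Reck in the response to Wnt7a and Wnt7b. In teeth, *Adgrf4* (also called Gpr115) is known from ameloblasts, and mice without it form poorly mineralised enamel.

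The libraries held 14713918 to 16675133 estimated counts after rounding, and 16289 to 16760 genes had a count in each. *Kdf1* was at 53.2, 47.1 and 48.9 TPM in control and at 0, 0.08 and 0 TPM in cKO libraries, where 1 count was found in all. Of 10 markers of the dental epithelium, none was at 0 in any library. Markers of other cell types were detected as well. The summed level of 9 endothelial markers was 194 to 260 TPM in control and 243 to 729 TPM in cKO libraries. Of 10 macrophage markers, all were higher on average in cKO, with sums of 68.9 to 160 and 147 to 491 TPM. The sums of 8 neutrophil markers were 18.52 to 24.6 and 153 to 400 TPM, with *Elane* and *Camp* at 0 in some libraries. For 7 pericyte and smooth muscle markers the ranges were 203 to 283 and 245 to 985 TPM, and for 11 papilla and odontoblast markers 1219 to 7504 and 2805 to 3467 TPM. Within that last list the genes moved in both directions, with a median log2 fold change of 1.43. By the criterion described below, 5 passed as higher and 1, *Dspp*, as lower, both in DESeq2 and with the replicate block. Of all tested genes, 5.05% and 1.88% did so in DESeq2 and 4.16% and 1.92% with the block. In edgeR without the block, 1 gene of the list passed as higher and none as lower. The sum of the epithelial markers, which holds the enamel gene *Amelx*, was 15534 to 46275 TPM in control and 5573 to 9487 TPM in cKO libraries. Of these 10 markers, 9 had a negative log2 fold change in edgeR and 1 a positive one, with a median of −0.83. For 5 of them the genotypes did not overlap in scaled counts, all lower in cKO, beside 16.2% of all tested genes. Markers of Schwann cells and neurons (260 to 462 and 154 to 246 TPM), skeletal muscle (8.31 to 10.93 and 8.83 to 9.47), cartilage (36.7 to 46.3 and 31.9 to 36.5) and adipocytes (8.99 to 22.7 and 40.4 to 179) made up the remaining lists. The adipocyte sum was mostly *Fabp4*, at 8.30, 19.7 and 8.79 TPM in control and 176, 43.4 and 38.3 TPM in cKO libraries. *Adipoq* and *Plin1* were at 0 in at least 1 library. Of the 5 cartilage markers, 3 were higher on average in cKO although their sum was lower, and *Col9a1* and *Matn1* were at 0 in at least 1 library. The 3 cartilage markers tested moved in both directions, with a median log2 fold change of 0.48 in edgeR. In such bulk samples, more cells of a type and more RNA per cell cannot be told apart.

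*Adgrf4* was the most abundant member, with 200 ± 40.7 TPM (SD, n = 3) in control and 204 ± 71.0 TPM (SD, n = 3) in cKO libraries. It took 30.9% to 35.4% of the summed *Adgr* TPM in control libraries and 20.9% to 40.3% in cKO libraries. *Adgrl1*, *Adgra3*, *Adgrl2* and *Adgrg1* followed, and together with *Adgrf4* these genes held 75.2% to 89.6% of the sum. In control libraries, *Adgrf4* stood clear of the next member, since its lowest library was above the highest of *Adgrl1*. The neighbours from *Adgrl1* down to *Adgrg1* overlapped one another in that group, and a gap then separated *Adgrg1* at 48.9 TPM from *Adgre5* at 21.6 TPM. In cKO libraries *Adgrf4* and *Adgra3* overlapped, and *Adgra3* stood clear of *Adgrl1*. All 26 members together summed to 686, 633 and 508 TPM in control and 803, 668 and 696 TPM in cKO libraries, so the genotypes overlapped. The further members, *Adgre5*, *Adgra2*, *Adgrl3*, *Adgrf5*, *Adgrl4* and *Adgrb2*, reached 10 TPM in at least 1 library.

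**Figure D1:**
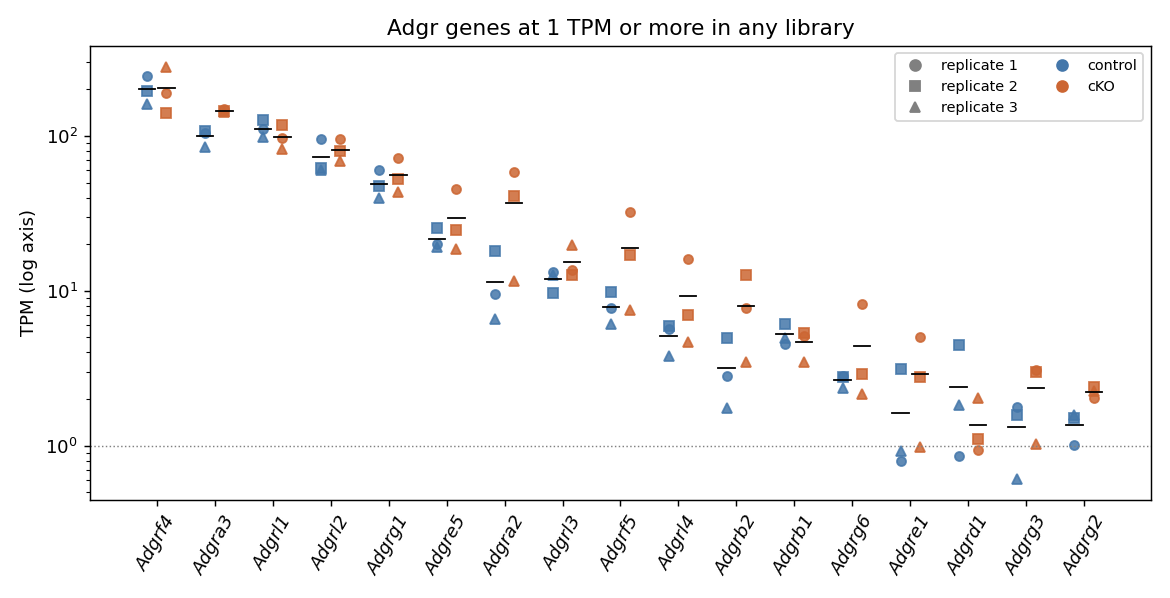
TPM of the 17 *Adgr* genes that reached 1 TPM in any library, on a log axis and ordered by mean level. Points are libraries, marker shape is the replicate number, colour is the genotype and black bars are group means; the dotted line is 1 TPM. *Adgrf4*, *Adgra3*, *Adgrl1*, *Adgrl2* and *Adgrg1* are at or above 39.4 TPM in every library.

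Of the 26 members, 19 had enough counts to be tested. None passed the criterion (a log2 difference of 1 or more in either direction, with adjusted p no higher than 0.05) in edgeR with Benjamini-Hochberg correction. Of all tested genes 0.432% passed it, 0.142% higher and 0.290% lower in cKO. Before adjustment, 4 members (*Adgra3*, *Adgrf5*, *Adgra2* and *Adgrb2*) had a p of 0.05 or less and each was higher in cKO, beside 24.5% of all genes in either direction and 13.0% in that direction. DESeq2 on the same counts called 2 members, *Adgra2* and *Adgrf5*, against a background of 6.94%. EdgeR with the replicate number as a block compares cKO and control libraries of the same number, a pairing that the labels do not state. In that fit 1 member passed, *Adgrb2*, against 6.09%. All 3 of these calls were higher in cKO, where the background in that direction was 5.05% in DESeq2 and 4.16% with the block. By adjusted p with no fold limit, *Adgra3* was added in DESeq2, where 12.6% of all genes passed, none was added with the block (9.87%), and none passed in edgeR without it (0.545%). Of the 19 members tested, 15 had a positive log2 fold change and 4 a negative one (*Adgrb1*, *Adgrd1*, *Adgrl1* and *Adgrf4*, whose sign turned with the scaling), beside 49.5% positive among all genes. The median was 0.43 on the log2 scale for the members and −0.00426 for all genes, and without replicate 1 of the cKO group it was 0.21 and 0.02. The members were taken by symbol, and the family was chosen with earlier results of these data known.

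**Figure D2:**
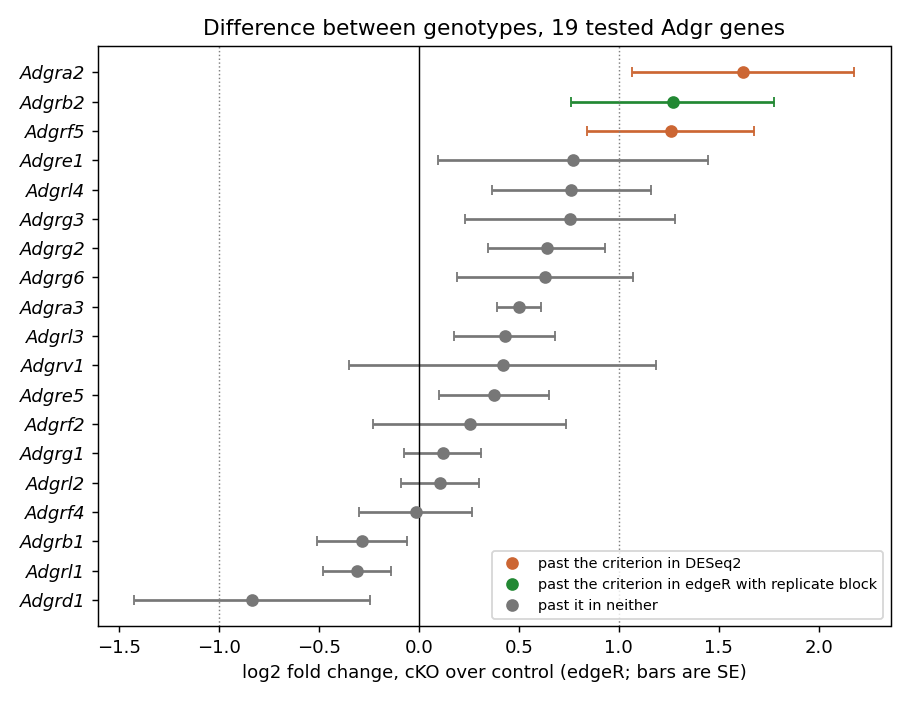
Log2 fold change of cKO over control for the 19 tested *Adgr* genes in edgeR, with bars of 1 SE. Dotted lines mark a log2 fold change of 1 in each direction; colour shows calls in DESeq2 (*Adgra2*, *Adgrf5*) and in edgeR with the replicate block (*Adgrb2*), and no gene was called without the block.

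*Adgra2*, the co-receptor of Wnt7 signalling that is best known from brain vessels, showed the largest difference among the tested members. It was at 9.58, 18.1 and 6.59 TPM in control and 58.7, 40.8 and 11.6 TPM in cKO libraries. Replicate 3 of the cKO group lay within the control range, and within each replicate number the cKO library was 1.75 to 6.13 times the control library. The difference was 1.62 on the log2 scale (SE 0.56), and its adjusted p (Benjamini-Hochberg) in edgeR was 0.143. The adjusted p was 0.0167 in DESeq2 and 0.0509 in edgeR with the replicate block, and it ran from 0.0167 to 0.401 over all alternatives. Without replicate 3 of the cKO group the log2 fold change was 2.05 and the adjusted p 0.0491 in edgeR, and without replicate 1 they were 1.20 and 0.299. Exons of *Adgra2* share bases with those of *Brf2* on the opposite strand in GENCODE M21. The sources used here do not say whether strand was kept in counting, so reads of these 2 genes may not be separable.

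The partners of *Adgra2* were read beside it. *Reck*, the anchored protein that holds Wnt7 for *Adgra2*, was at 10.4, 28.4 and 12.1 TPM in control and 32.8, 49.2 and 23.2 TPM in cKO libraries. A log2 fold change of 1.01 (SE 0.41) was found, with adjusted p at 0.183 in edgeR, 0.0747 in DESeq2 and 0.0155 with the block, each with Benjamini-Hochberg adjustment. The ligand gene *Wnt7a* moved the other way, from 27.7 ± 2.32 to 12.8 ± 3.47 TPM (SD, n = 3 per group), and *Wnt7b* from 17.4 ± 1.13 to 8.87 ± 2.57 TPM. Neither ligand had an overlap between the genotypes. Their log2 fold changes were −1.18 (SE 0.23) and −1.03 (SE 0.24), with adjusted p values of 0.0637 and 0.0789 in edgeR, 0.000374 and 0.00413 in DESeq2, and 0.0138 and 0.0165 with the block (Benjamini-Hochberg). Both ligands therefore passed in DESeq2 and with the block and not without it. The 10 epithelial markers had a median log2 fold change of −0.83 in edgeR, and a fall of the ligands beyond these was not tested.

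*Adgra3* (Gpr125), the other *Adgra* receptor expressed here and an orphan with no settled ligand, separated the genotypes most cleanly. It was at 105, 107 and 85.3 TPM in control and at 150, 144 and 143 TPM in cKO libraries. No cKO library overlapped a control library, and the spread within the cKO group was small, with an SD of 3.44 TPM around 146 TPM. Among the 19 tested members, only *Adgra3* and *Adgrg2* had genotypes that did not overlap, both higher in cKO, where 14.5% of all tested genes did the same and 30.7% did so in either direction. The log2 fold change of *Adgra3* was 0.50 (SE 0.11), a 1.42-fold difference, and thus under the fold limit of the criterion. Its adjusted p was 0.0726 in edgeR, 0.0571 with the block and 0.000249 in DESeq2 (Benjamini-Hochberg), with a range up to 0.280 over the alternatives. Leaving out any 1 library kept it between 0.45 and 0.55. *Adgra1*, the remaining member of the subfamily, had 2, 1 and 1 counts in control and none in cKO libraries, and both lie at or under the floor of 3 counts that a count of 0 allows.

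**Figure D3:**
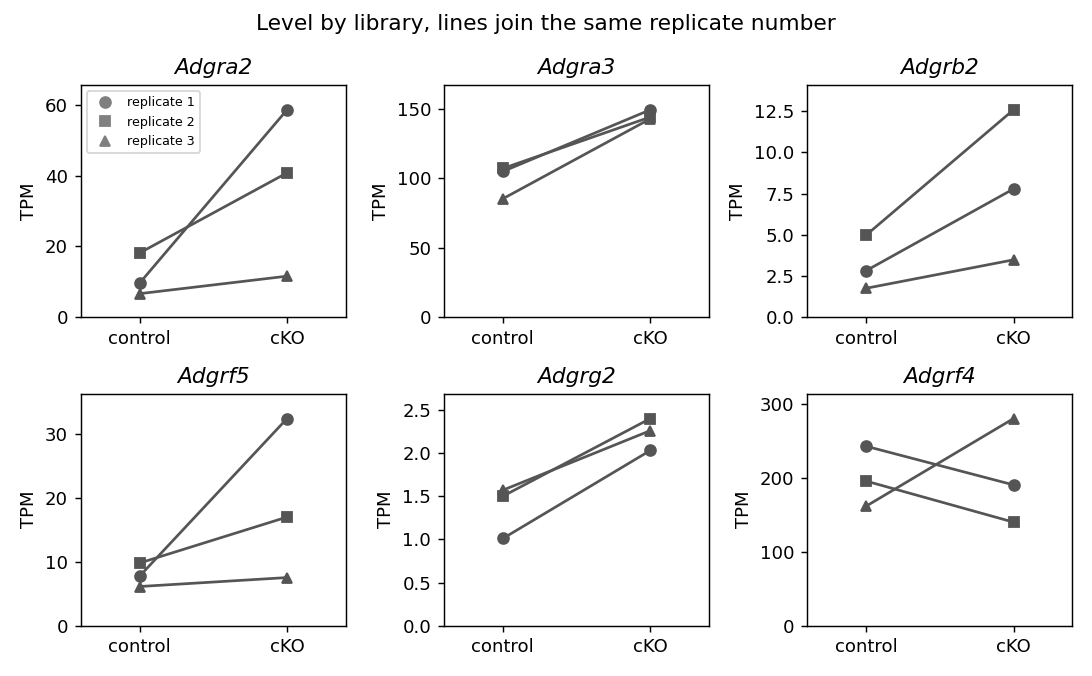
TPM by library for 6 *Adgr* genes, with lines joining control and cKO libraries of the same replicate number and axes starting at 0. *Adgra2*, *Adgra3*, *Adgrb2*, *Adgrf5* and *Adgrg2* were higher in cKO in all 3 pairs, whereas *Adgrf4* was higher in 1 pair and lower in the other 2.

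The *Adgrb* receptors were first described as brain angiogenesis inhibitors, and *Adgrb1* serves in the uptake of apoptotic cells. *Adgrb2* was at 2.81, 4.97 and 1.74 TPM in control and 7.78, 12.6 and 3.47 TPM in cKO libraries. The lowest cKO library lay within the control range, yet the ratio within replicate numbers was steady, at 2.77, 2.53 and 1.99. The log2 fold change of 1.27 (SE 0.51) had an adjusted p of 0.182 in edgeR, and with the replicate block it was 1.20 (SE 0.19) with an adjusted p of 0.0165 (Benjamini-Hochberg). DESeq2 gave an adjusted p of 0.0698, the alternatives up to 0.460, and without replicate 2 of the cKO group the log2 fold change was 0.76. *Adgrb1* was at 5.23 ± 0.821 and 4.65 ± 1.05 TPM (SD, n = 3 per group) in control and cKO libraries, a difference within the spread of the replicates, with a log2 fold change of −0.28 (SE 0.22). *Adgrb3*, a receptor of C1q-like proteins at synapses, had 2, 2 and 4 counts in control and 16, 12 and 7 in cKO libraries and was left out by the filter on low counts. These counts did not overlap, and in the alternatives that included the gene its adjusted p was between 0.0587 and 0.278.

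Of the *Adgrf* subfamily, *Adgrf4* and *Adgrf5* were expressed above 1 TPM in every library. *Adgrf4* had 243, 196 and 162 TPM in control libraries and 190, 140 and 280 TPM in cKO libraries. Its highest and its lowest library were both cKO, and the log2 fold change of −0.02 (SE 0.28) had an adjusted p of 0.980 in edgeR (Benjamini-Hochberg). The sign of this value turned under 4 of the other scalings and tests, so no direction can be given. *Amelx*, the enamel matrix gene, spanned 4017 to 32209 TPM in control and 9.45 to 699 TPM in cKO libraries. *Adgrf5* (Gpr116), a receptor of lung epithelium and of endothelium, was at 7.74, 9.79 and 6.12 TPM in control and 32.4, 16.98 and 7.52 TPM in cKO libraries. Only replicate 3 of the cKO group lay within the control range, and the difference was 1.26 on the log2 scale (SE 0.42). The adjusted p was 0.135 in edgeR, 0.0222 in DESeq2 and 0.0828 with the block (Benjamini-Hochberg), up to 0.389 over the alternatives. Without replicate 1 of the cKO group the log2 fold change was 0.76, and without replicate 3 it was 1.63 with an adjusted p of 0.0476 (edgeR). *Adgrf2* had 0.20 to 0.65 TPM over all libraries, and *Adgrf1* and *Adgrf3* had at most 3 counts in any library.

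*Adgrf5* and *Adgrl4* (Eltd1), both known from endothelial cells, were set beside the endothelial markers. *Adgrl4* had 5.64, 5.91 and 3.81 TPM in control and 16.0, 6.99 and 4.70 TPM in cKO libraries, so only replicates 1 and 2 of the cKO group were above every control library. It differed by 0.76 on the log2 scale (SE 0.40, adjusted p = 0.280 in edgeR), by 0.20 without replicate 1 of the cKO group and by 1.07 without replicate 3. The sum of the 9 endothelial markers was 233, 260 and 194 TPM in control and 729, 394 and 243 TPM in cKO libraries, in the same order of libraries within each group. As a share of that sum, *Adgrl4* was at 2.42%, 2.27% and 1.96% in control and 2.19%, 1.78% and 1.93% in cKO libraries. *Adgrf5* was at 3.32%, 3.76% and 3.15% in control and 4.44%, 4.31% and 3.09% in cKO libraries. All 9 endothelial markers were higher in cKO on average, and the median of their log2 fold changes was 0.93. The part of endothelial cells in these differences was not tested beyond these shares. *Adgra2* varied more against the same markers, from 3.39% to 10.4% of their sum.

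**Figure D4:**
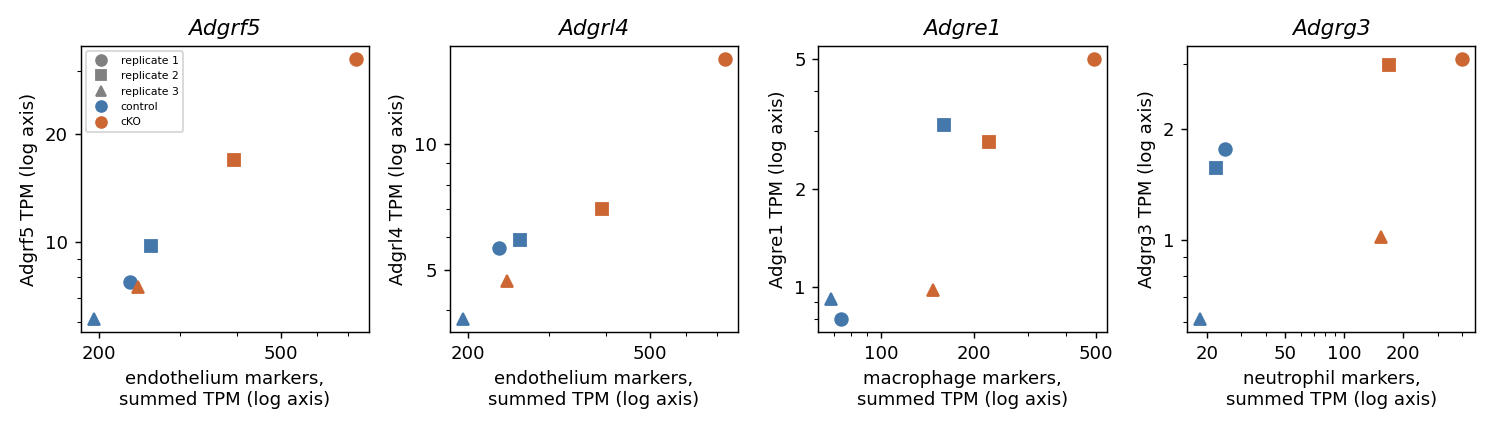
TPM of 4 *Adgr* genes against the summed TPM of marker genes in the same library, on log axes. Each point is a library, with colour for genotype and shape for replicate number. Within each genotype, *Adgrf5* and *Adgrl4* rank the libraries as the endothelial sum does, which spans 194 to 729 TPM. *Adgrg3* is between 0.61 and 3.10 TPM, and the neutrophil sum spans 18.52 to 400 TPM. The part of these cell types was not tested.

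The *Adgre* receptors are best known from leukocytes, although *Adgre5* is also made by many other cells. *Adgre1* encodes the macrophage antigen F4/80 and was at 0.80, 3.14 and 0.92 TPM in control and 5.0, 2.78 and 0.98 TPM in cKO libraries. The genotypes overlapped, and the means differed by 0.77 on the log2 scale (SE 0.68). As a share of the macrophage markers it was 1.09% to 1.96% in control and 0.667% to 1.24% in cKO libraries. Without replicate 1 of the cKO group the log2 difference was 0.21, and without replicate 2 of the control group it was 1.59. *Adgre5* (Cd97) was the most abundant of the subfamily, with 20.1, 25.4 and 19.2 TPM in control and 45.1, 24.8 and 18.7 TPM in cKO libraries. Only replicate 1 of the cKO group exceeded the control range, and without it the log2 fold change of 0.38 (SE 0.28) was 0.01. Set against the macrophage markers, *Adgre5* was at 27.2%, 15.9% and 27.9% of their sum in control and 9.19%, 11.1% and 12.7% in cKO libraries. That sum was itself 101 TPM on average in control and 287 TPM in cKO libraries. The part of macrophages in the levels of *Adgre1* and *Adgre5* was not tested. Some exon bases of *Adgre5* are shared with *Ddx39* on the opposite strand. *Cd55*, which encodes its ligand, was lower in every cKO library, with 21.5 ± 2.08 TPM in control and 10.94 ± 4.0 TPM in cKO libraries (SD, n = 3 per group). The log2 fold change of *Cd55* was −0.98 (SE 0.31), and it passed only with the block, at −1.05 and an adjusted p of 0.0296 in edgeR (Benjamini-Hochberg), against 0.124 without it. In DESeq2 its adjusted p was 0.0326 at a log2 fold change of −0.96, just under the fold limit. The median log2 fold change of the 10 epithelial markers in edgeR was −0.83. *Adgre4* had at most 3 counts in any library.

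In the *Adgrg* subfamily, *Adgrg1* (Gpr56), which binds type III collagen and guides the developing cortex, was the most abundant. It was at 60.1, 47.2 and 39.4 TPM in control and 72.0, 52.7 and 43.6 TPM in cKO libraries, a log2 difference of 0.12 (SE 0.19). The sign of that value depended on replicate 1 of the cKO group, without which it was −0.03. Its ligand gene *Col3a1*, a fibroblast collagen, was at 91.9, 247 and 61.0 TPM in control and 1185, 673 and 233 TPM in cKO libraries. *Col3a1* had a log2 fold change of 2.32 (SE 0.66), with adjusted p values of 0.105 in edgeR, 0.0303 in DESeq2 and 0.0324 with the block (Benjamini-Hochberg). *Tgm2*, a transglutaminase that also binds *Adgrg1*, had the largest log2 fold change of the partners, 3.72 (SE 0.92). It was at 3.23, 3.39 and 1.32 TPM in control and 90.4, 8.21 and 14.3 TPM in cKO libraries, and without replicate 1 of the cKO group the value was 2.13. Its adjusted p values were 0.0841, 0.00396 and 0.0410 in the same order.

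*Adgrg2* (Gpr64), a receptor of the epididymis, was at 1.01, 1.5 and 1.57 TPM in control and 2.03, 2.40 and 2.26 TPM in cKO libraries. The genotypes did not overlap, but the counts were only 41 to 96, and the log2 fold change of 0.64 (SE 0.29) had an adjusted p of 0.227 in edgeR (0.206 in DESeq2 and 0.157 with the block, Benjamini-Hochberg). *Adgrg3* (Gpr97), a receptor of granulocytes, was at 1.77, 1.57 and 0.61 TPM in control and 3.10, 2.99 and 1.02 TPM in cKO libraries, with 1.67 to 1.90 times the control TPM in each pair. The counts were only 14 to 60, with 14 and 20 in pair 3, and the genotypes overlapped. The difference on the log2 scale was 0.76 (SE 0.52, adjusted p = 0.411 in edgeR). The neutrophil markers had a median log2 fold change of 3.43 in edgeR over the 6 of them tested. All 6 passed the criterion as higher with the block and 5 without it, beside 4.16% and 0.142% of all tested genes. The part of granulocytes in the level of *Adgrg3* was not tested. *Adgrg6* (Gpr126), required for myelination by Schwann cells, was at 2.80, 2.78 and 2.35 TPM in control and 8.16, 2.91 and 2.15 TPM in cKO libraries. Replicate 1 of the cKO group alone stood apart, and without it the log2 fold change of 0.63 (SE 0.44) was −0.07. The sum of the 8 Schwann cell and neural markers was lowest in that library, at 154 TPM against 189 to 462 TPM in the others. The laminin gene *Lama2*, one of the matrix genes tied to *Adgrg6*, was at 4.87 ± 2.25 and 11.9 ± 3.99 TPM in control and cKO libraries (SD, n = 3 per group). The genotypes did not overlap in CPM but did in TPM, with 7.47 in replicate 2 of control and 7.38 in replicate 3 of cKO. On the log2 scale *Lama2* differed by 1.23 (SE 0.33), with adjusted p values of 0.0924 in edgeR, 0.00636 in DESeq2 and 0.0249 with the block (Benjamini-Hochberg). *Adgrg5* had 1, 2 and 2 counts in control and 5, 8 and 2 in cKO libraries, and *Adgrg7* had 3 counts in 1 control library and none elsewhere.

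The latrophilins were among the most abundant members. *Adgrl1* was at 110, 126 and 98.4 TPM in control and 96.6, 118 and 81.8 TPM in cKO libraries, lower in each of the 3 pairs but overlapping between the genotypes. On the log2 scale the difference was −0.31 (SE 0.17), with adjusted p at 0.306 in edgeR and 0.175 with the block (Benjamini-Hochberg), and no alternative gave a lower value than the block. *Adgrl2* was at 72.8 ± 20.3 and 81.4 ± 13.2 TPM and *Adgrl3* at 11.9 ± 1.88 and 15.4 ± 3.78 TPM in control and cKO libraries (SD, n = 3 per group). Their log2 fold changes were 0.11 (SE 0.20) and 0.43 (SE 0.25), both within the spread of the replicates. Exons of *Adgrl1*, *Adgrl2* and *Adgrl3* overlap other genes on the opposite strand, and 8 of the 26 members share exon bases with some other gene. Among the ligands, the teneurin genes *Tenm3* and *Tenm4* were at 30.6 ± 8.84 and 41.4 ± 13.8 TPM in control and 32.1 ± 8.48 and 43.8 ± 12.7 TPM in cKO libraries. *Flrt3* was at 4.44, 5.10 and 2.97 TPM in control and 10.1, 11.8 and 5.46 TPM in cKO libraries without overlap, a difference of 1.06 on the log2 scale (SE 0.31). The adjusted p values were 0.107 in edgeR, 0.0173 in DESeq2 and 0.0241 with the block (Benjamini-Hochberg). *Unc5d*, a further partner of FLRT proteins, had 0.26 ± 0.236 and 1.23 ± 1.25 TPM and passed only with the block (adjusted p = 0.0198 in edgeR, against 0.197 without it).

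*Adgrd1* (Gpr133), which raises cyclic AMP, had 0.86, 4.45 and 1.82 TPM in control and 0.94, 1.11 and 2.03 TPM in cKO libraries. The log2 fold change of −0.84 (SE 0.59) rested on replicate 2 of the control group, without which it was −0.13. *Ptk7*, its ligand gene, had 200 ± 9.31 and 226 ± 27.8 TPM (SD, n = 3 per group). *Adgrv1*, a very large receptor known from hair cells of the inner ear, was at 0.04 to 0.22 TPM.

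*Celsr1*, *Celsr2* and *Celsr3* form the cadherin branch of the same receptor class, although their symbols differ, and *Celsr1* acts in planar cell polarity of epithelia. *Celsr1* was at 144, 145 and 192 TPM in control and 74.3, 72.5 and 82.0 TPM in cKO libraries, a level in controls like that of the leading members. It fell by 1.22 on the log2 scale (SE 0.16), with adjusted p values of 0.0498 in edgeR, 2.65e-09 in DESeq2 and 0.00952 with the block (Benjamini-Hochberg), up to 0.210 over the alternatives. *Celsr2* stayed under the fold limit, with 71.5, 63.1 and 69.9 TPM in control and 45.5, 40.0 and 52.1 TPM in cKO libraries. Its log2 fold change was −0.73 (SE 0.13), with adjusted p values of 0.0637 in edgeR, 7.28e-05 in DESeq2 and 0.0197 with the block (Benjamini-Hochberg). *Celsr3* had at most 0.20 TPM. Of the 10 epithelial markers, 9 also had a negative log2 fold change in edgeR and 1 a positive one, with a median of −0.83. Among them, *Cdh1* and *Krt14* each differed by −1.50 and *Krt5* by −0.83, against −0.05 for *Epcam*. Whether *Celsr1* and *Celsr2* fell beyond epithelial transcripts as a whole was not tested. The polarity gene *Vangl2* was at 105 ± 17.04 and 81.5 ± 19.4 TPM (SD, n = 3 per group), and differed by −0.41 on the log2 scale (SE 0.24).

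Over the 77 listed partner genes, 72 were tested. The list was drawn up with earlier results of these data known, so the background shares beside it are no independent test. In edgeR, 1 of them passed, *Celsr1*, which was lower in cKO (background 0.290%). With the block 14 passed, 10 higher and 4 lower (background 4.16% and 1.92%), and in DESeq2 11 passed, 8 higher and 3 lower (5.05% and 1.88%). By group, 12 of the 31 tested ligands and co-receptors passed with the block, 8 in DESeq2 and none in edgeR without the block, with a median log2 fold change of 0.55. Of the 12 *Celsr* and polarity genes 1 passed in each fit, with a median of −0.20. Of the 26 G protein and effector genes, none passed in edgeR, 1 with the block and 2 in DESeq2, with a median of 0.11. At an unadjusted p of 0.05 or less in edgeR, 5 of these 26 genes were counted, all higher in cKO, beside 13.0% of all genes in that direction. *Gnas*, the stimulatory G protein gene, was at 2286 ± 176 and 2559 ± 365 TPM (SD, n = 3 per group), and differed by 0.05 on the log2 scale (SE 0.17). *Adcy5*, an adenylyl cyclase, had 0.99, 1.26 and 1.02 TPM in control and 9.50, 3.65 and 2.65 TPM in cKO libraries, and passed in DESeq2 (adjusted p = 0.000373) and with the block (0.0387, edgeR). *Rtn4rl2*, *Plxdc2* and *Thy1* completed the partners with the largest differences, with log2 fold changes of 2.85 (SE 0.70), 1.34 (SE 0.33) and 1.09 (SE 0.60). *Rtn4rl2* and *Plxdc2* passed in DESeq2 and with the block, and *Thy1* only with the block.

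**Figure D5:**
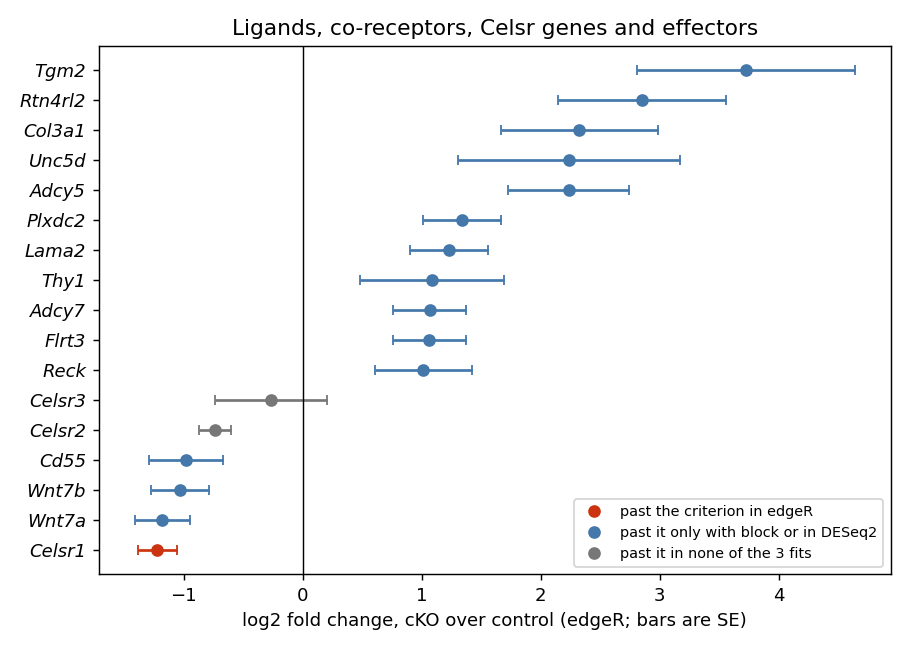
Log2 fold change of cKO over control in edgeR, with bars of 1 SE, for the partner genes past the criterion in any of the 3 fits and for *Celsr1*, *Celsr2* and *Celsr3*. Colour gives the fit in which a gene passed; *Celsr1*, at −1.22, was the only one past it in edgeR without the block, and *Wnt7a*, *Wnt7b* and *Cd55* also lie left of 0.

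Within replicate numbers, 8 of the 19 tested members were higher in the cKO library in all 3 pairs in scaled counts (CPM), beside 25.7% of all tested genes. These were *Adgra2*, *Adgra3*, *Adgrb2*, *Adgrf5*, *Adgrg1*, *Adgrg2*, *Adgrg3* and *Adgrl4*. *Adgrl1* alone was lower in all 3, beside 27.0% of all tested genes. For *Adgrg1* the ratio in TPM was 1.11 to 1.20, and for *Adgrl1* it was 0.831 to 0.935.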

How the data were processed

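The authors deposited 1 table of genes. Its deposited estimated counts are reads assigned to each gene without scaling, of which 10.9% to 11.5% per library were not whole. The deposited TPM values, used here for levels, are scaled by transcript length to 1 total per library, and the deposited FPKM values by length and library size. The submitters' processing notes name BWA 0.7.12, Picard 2.6.0 and StringTie without their roles. The genome build and the differential test are not given in the sources used here, so no coordinates are printed. The columns of group means were not used.

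Counts were rounded, filtered with filterByExpr (14131 genes kept) and scaled by TMM factors of 0.950 to 1.03 in R 4.3.3 with edgeR 4.0.16. Robust quasi-likelihood F-tests were two-sided, with Benjamini-Hochberg adjustment over all tested genes. The biological coefficient of variation was 25.4%. A count of 0 allows 3 counts, or 0.182 to 0.198 CPM, which covers counting error only. Labels call the libraries biological replicates. Between replicates the variance was 36.0 to 76.7 times that of sampling, and none was a duplicate. Deviations of libraries with the same number from their group means had correlations of 0.135, 0.324 and 0.499 across genes. The numbers were read as pairs on this basis, which comes from the same data and is weak for pair 1. Each deviation was taken from a mean of 3 libraries, so the correlations are not independent of one another. For unmatched numbers the values were −0.410 to 0.144, the highest (control 2 with cKO 1) above that of the matched pair 1. The labels do not state a shared litter. Alternatives were DESeq2 1.42.0, limma 3.58.1 (voom, and log2(TPM + 1) or log2(TPM + 0.1)), other scalings and filters, the replicate block, no fold limit and the omission of each library. The procedure was tested on simulated counts.

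The members, partner genes and marker lists were chosen with earlier results of these data known. By the rule for names, every member was accounted for, together with *Kdf1*, the *Celsr* genes and the 10 partners with the largest differences past the criterion in any of the 3 fits. *Reck*, *Wnt7b*, *Cd55*, *Flrt3*, *Tenm3*, *Tenm4*, *Ptk7*, *Gnas*, *Vangl2*, *Dspp* and *Amelx* were named after their values were seen. Overlapping exons were read from GENCODE M21, in which all 26 members were found by symbol.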

Additional observations from a re-analysis of the deposited data

How the results depend on the processing

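The number of *Adgr* genes past the criterion was 0 in edgeR, with 4 at an unadjusted p of at most 0.05. It was 2 in DESeq2 and 1 with the replicate block, ranged from 0 to 2 when 1 library was left out (2 without replicate 3 of the cKO group), and was 0 under the other scalings, filters and tests. The corresponding count over all genes was 61. It became 980 in DESeq2, 860 with the replicate block, 103 without the filter on low counts, 31 with limma on log2(TPM + 1), 9 with library size alone, 7 with DESeq2's size factors in edgeR, and 6 both with at least 10 counts in every library and in limma-voom. Leaving out 1 library gave 1 to 465. For the partner genes the count of 1 became 11 in DESeq2, 14 with the block and 0 with DESeq2's size factors, library size alone, at least 10 counts in every library and limma-voom, and leaving out 1 library gave 0 to 6. The cause of these differences was not tested. The replicate block changed no other call among the members. The log2 fold change of *Adgrf4* turned from −0.02 to 0.0013 in DESeq2 and with its size factors in edgeR, 0.0433 with library size alone and 0.0243 with the upper quartile, and ran from −0.36 to 0.22 when 1 library was left out. That omission also turned *Adgrf2* (−0.25 to 0.51), *Adgrg1* (−0.026 to 0.30), *Adgrg6* (−0.0684 to 0.96), *Adgrl2* (−0.0314 to 0.35) and *Adgrv1* (−0.58 to 1.13), none of which was called in any fit. The median over the members ran from 0.21 to 0.60. Members at 1 TPM or more in any library numbered 17, and 15 to 18 with other limits. Depth limits the 7 members that were not tested, which had at most 16 counts in a library.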
